A study of Rattus norvegicus with 16 samples.

Results

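The ATP-binding cassette (ABC) drug efflux transporters were followed across kidney cortex from wild-type and BRCA1+/- rats given ferric nitrilotriacetate (Fe-NTA), an iron chelate that injures the renal proximal tubule. The members were 9 genes, read by the 14 of 45598 array probes that carry one of these symbols in the scanner files: Abcb1a, Abcb1b, Abcc1, Abcc2, Abcc3, Abcc4, Abcc5, Abcg2 and Abca1. The set was chosen by gene family with earlier results of these data in view, above all the Fe-NTA against control values of Abcb1b. The Abcb1b values against controls are therefore given as a description, without a test.

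All animals were male Jcl:SD rats, either wild-type or BRCA1+/- (called heterozygous here), and each of the 16 arrays held Cy3-labelled RNA from 1 sample of kidney cortex. Each genotype had 2 normal controls, 3 samples after 1 week and 3 samples after 3 weeks of intraperitoneal Fe-NTA. Injections began at 4 weeks of age and were given 5 times per week: 2 at 5 mg iron/kg and 3 at 7 mg iron/kg in the first week, then 10 mg iron/kg in the 2 weeks that followed. Tissue was taken 48 h after the last injection. The protocol started with 17 wild-type and 18 heterozygous rats. The labels give neither an age nor a vehicle injection for the controls, and do not say how the arrayed animals were picked. The 1-week and 3-week groups differ in age as well as in dose. The share of probes well above background ran from 32.6% to 60.3% over the 16 arrays and no member spot was saturated. Replicates of a group correlated at 0.96 to 0.98 across probes, apart from wild-type 1-week replicate 3, which correlated at 0.91 and 0.90 with the others of its group, whose own correlation was 0.97.

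ABC transporters use ATP to move substrates out of a cell. In rodents P-glycoprotein, the multidrug pump of the apical membrane, is encoded by a pair of genes, Abcb1a and Abcb1b. The ABCC members are multidrug resistance proteins that export organic anions, many of them glutathione or glucuronide conjugates. Abcg2 exports sulfates and urate across the brush border, and Abca1 loads cellular cholesterol onto apolipoproteins. In the proximal tubule the apical pumps finish a transport chain that begins with uptake carriers on the blood side. Basolateral members such as Abcc1 and Abcc3, in the cells that make them, export toward the blood.

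The P-glycoprotein probes are shown first because the probes themselves bear on how the values can be read. Each is 60 bases long and lies on chromosome 4 of build rn4, plus strand, according to the scanner files. Exon and UTR annotation of this build was not used here. Base positions in the transcript named by the files are 3828 for the first, 2275 for the second (both in the Abcb1b transcript) and 4145 for the third (in the Abcb1a transcript).
Abcb1b A_64_P039888, chr4:21912180-21912239: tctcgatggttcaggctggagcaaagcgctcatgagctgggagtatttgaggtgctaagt
Abcb1b A_44_P1159402, chr4:21862438-21862497: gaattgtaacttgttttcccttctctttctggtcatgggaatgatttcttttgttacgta
Abcb1a A_44_P279083, chr4:21795859-21795918: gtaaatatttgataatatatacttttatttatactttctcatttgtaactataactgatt
The first of these probes is 51.67% G and C, the second 35% and the Abcb1a probe 16.67%, against a median of 43.3% over the array's probes. The longest run of bases that the Abcb1a probe shares with either Abcb1b probe is 8.

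Abcb1b went from not being well above background in any control array to well above background in all 12 Fe-NTA arrays, in both genotypes and with both probes. Levels are scaled log2 signals, in which each array's 75th percentile was subtracted, so 0 is that percentile and levels of different probes are not comparable. For probe A_64_P039888 the wild-type controls read -3.41 and -3.79, both not well above background. The wild-type arrays read 3.59, 3.96 and 3.26 at 1 week and 3.17, 3.38 and 3.38 at 3 weeks. The treated and control arrays are far apart, and the treated arrays lie within 1 log2 unit of each other. In heterozygous cortex the controls read -3.15 and -2.48, again not well above background, and the Fe-NTA arrays read 3.65, 3.48 and 4.03 at 1 week and 3.04, 3.11 and 3.75 at 3 weeks. Because the control values are below detection, only a lower bound of the fold is available. It sets the mean of the treated arrays against a floor averaged over the control arrays. The floor is the higher of the array's lowest signal well above background, over all probes, and the probe's own value. Undetected readings of other probes can lie above that lowest signal. For example, Abcc1 A_64_P088800 read -1.49 in wild-type control replicate 2, where that lowest signal was -1.57. The bounds therefore hold for this floor only, and a higher floor would lower them. With it Abcb1b was at least 31.2-fold higher at 1 week and at least 25.4-fold higher at 3 weeks in wild-type cortex. In heterozygous cortex it was at least 68.7-fold and at least 51.4-fold higher. The lower wild-type bounds go with the dimmer wild-type control arrays, whose detection limits were -1.15 and -1.57, against -2.75 and -2.01 for the heterozygous controls. The measured differences were 7.20 and 6.91 (log2, SE 0.31) in wild-type and 6.54 and 6.12 in heterozygous cortex.

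The other Abcb1b probe moved the same way. Probe A_44_P1159402 read -3.34 and -3.74 in the wild-type controls, then -0.57, -0.41 and 0.65 at 1 week and -0.99, -1.16 and -1.23 at 3 weeks. The heterozygous controls read -4.03 and -4.22, followed by -0.86, -0.16 and -0.39 at 1 week and -0.77, -1.41 and -0.89 at 3 weeks. No treated array overlapped a control array. The log2 differences were 3.43 and 2.41 in wild-type and 3.65 and 3.10 in heterozygous cortex (SE 0.35). With the same floor the bounds were at least 2.38-, 1.18-, 3.76- and 2.57-fold. The probes share their direction; with every control below detection, the sizes of the 2 changes cannot be set against each other. Another background correction was also run (normexp, with an offset of 50 added). With it the 4 differences shrank to between 0.11 and 0.58 for A_44_P1159402 and to between 2.90 and 3.51 for A_64_P039888. The offset is of the size of the arrays' 75th percentile signals, 20.1 to 78.5. A constant of that size lowers log2 differences of dim probes. Its part in the normexp values given here and below was not tested.

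**Figure D1:**
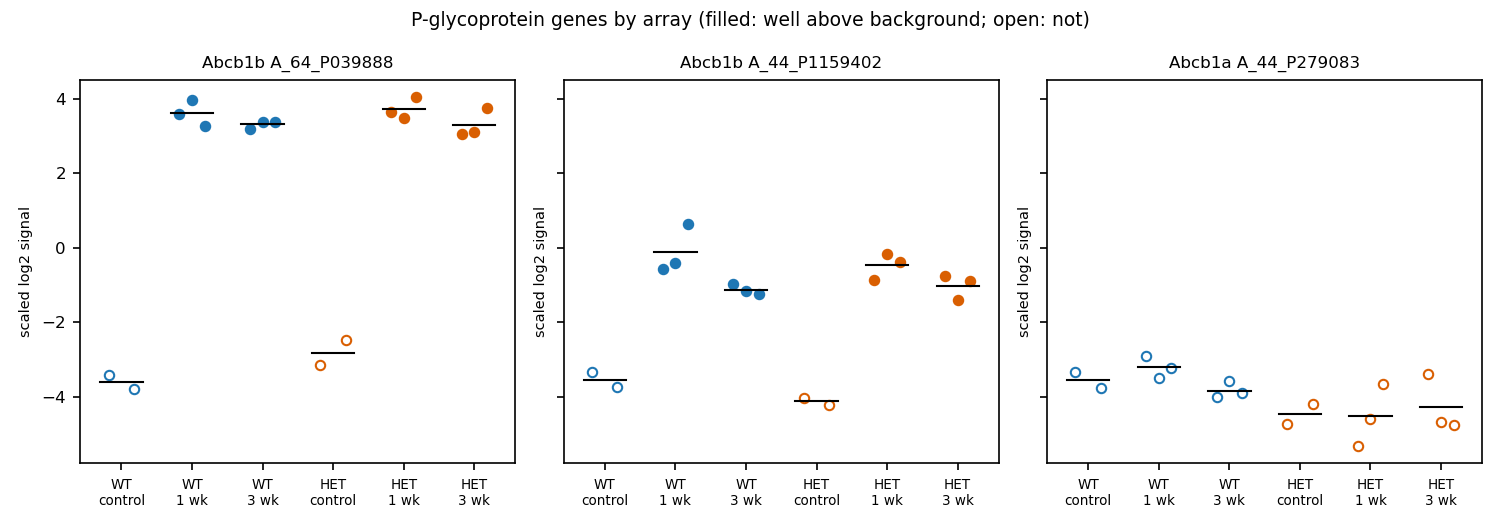
Scaled log2 signal (y axis, shared) of each array for the 3 P-glycoprotein probes, by genotype (WT wild-type, HET heterozygous) and treatment; each point is 1 array, filled where well above background, and the bar is the group mean. Both Abcb1b probes separate all 12 Fe-NTA arrays from the 4 controls, and every Abcb1a point is open.

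Among treated animals Abcb1b did not pass the test for any difference in time or genotype. For A_64_P039888 the 3-week arrays lay 0.29 (log2, SE 0.28; 95% interval -0.88 to 0.30 for 3 weeks minus 1 week) below the 1-week arrays in wild-type cortex, with an adjusted p of 0.55 from limma. In heterozygous cortex the difference was -0.42 (95% interval -1.01 to 0.17; adjusted p = 0.51, limma). Heterozygous minus wild-type was 0.12 at 1 week (95% interval -0.47 to 0.71; adjusted p = 0.90, limma) and -0.01 at 3 weeks (-0.60 to 0.58; adjusted p = 1.00, limma). For A_44_P1159402 the wild-type 3-week arrays lay lower than the 1-week arrays with no overlap, by -1.02 (SE 0.31; adjusted p = 0.058, limma). Without wild-type 1-week replicate 1 this difference was -1.24 with an adjusted p of 0.028 (limma). That was the largest fall of 16 alternatives, which ran from -1.24 to -0.38, and the only 1 called. The highest 1-week value, 0.65, is that of replicate 3, the array that stands apart.

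Abcb1a, the gene next to Abcb1b, gave no usable reading. Its probe A_44_P279083 was well above background on 0 of 16 arrays and did not pass the detection filter, with levels between -5.32 and -2.91. These values give only an upper bound that differs from array to array, and no fold is given. In the RefSeq gene table (assembly GRCr8) the neighbours run Abcb4, Abcb1b, Abcb1a and Rundc3b. The probe for Abcb4, which exports phosphatidylcholine into bile, also did not pass the filter.

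The RefSeq promoter windows (250 bases before to 50 after the start, build GRCr8, minus strand) of both P-glycoprotein genes are shown, since 1 gene of the pair read far above its control level and the other could not be read. Of the 9 members 7 had a promoter entry. Capitals mark matches, on either strand, to an AP-1 element (TGANTCA), an antioxidant response element core (TGACNNNGC), a CCAAT box (CCAAT) or a GC box (GGGCGG).
Abcb1b, chr4:26279980-26280279: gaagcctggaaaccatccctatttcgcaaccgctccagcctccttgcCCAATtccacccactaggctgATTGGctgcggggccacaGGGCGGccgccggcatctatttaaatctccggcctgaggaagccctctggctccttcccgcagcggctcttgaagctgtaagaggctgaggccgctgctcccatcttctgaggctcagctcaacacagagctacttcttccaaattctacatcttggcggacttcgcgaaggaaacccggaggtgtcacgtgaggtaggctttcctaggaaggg
Abcb1a, chr4:26397599-26397898: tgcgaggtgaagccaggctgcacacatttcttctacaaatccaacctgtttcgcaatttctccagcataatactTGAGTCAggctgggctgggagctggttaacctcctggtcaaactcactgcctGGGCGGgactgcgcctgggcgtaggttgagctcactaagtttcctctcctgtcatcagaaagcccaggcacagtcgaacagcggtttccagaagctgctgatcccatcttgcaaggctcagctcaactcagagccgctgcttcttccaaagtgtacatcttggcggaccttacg
The Abcb1b window holds 2 CCAAT boxes, 203 and 182 bases upstream of the start, and 1 GC box 164 bases upstream. The Abcb1a window holds 1 AP-1 element 176 bases upstream and 1 GC box 124 bases upstream. Of all 33469 promoters listed, 7.33% hold the AP-1 letters, 12.1% the antioxidant response letters, 37.5% the CCAAT letters and 33.1% the GC box letters. All 7 member promoters hold a GC box, Abcb1b and Abcc2 hold the CCAAT letters, and of the 7 Abcc2 alone holds the antioxidant response letters. These matches are a description of the letters in the windows.

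Of the 14 member probes 11 passed the filter (all arrays of 1 group or more flagged as well above background) and were tested among 20404 probes, 9 of them for genes other than Abcb1b. Of these 9, 8 passed in a control group too. The other, Abca1 A_44_P406636, passed only through heterozygous cortex at 3 weeks, where it is high, and is left out of the next counts. Against controls 3 of the 8 were called in wild-type cortex at 1 week (adjusted p under 0.05, limma), where 27.6% of all probes were called. At 3 weeks 3 of 8 were called, against 14.4% of all probes. In heterozygous cortex 1 of 8 was called at 1 week, against 7.44%, and 1 of 8 at 3 weeks, against 15.3%. Without the filter, over all probes and with Abca1 A_44_P406636 included, 1, 0, 1 and 1 of 12 member probes other than Abcb1b were called, against 7.41%, 2.69%, 1.28% and 2.9% of all probes. With so few probes, no share is read as apart from its background. Whether the arrays of compared groups overlap is given as a description only, since its share over all probes was not counted. Between genotypes in controls, 3 of 14 member probes lay higher and 6 lower in heterozygous cortex without overlap, where 0% of all probes were called. The comparisons within a genotype share its 2 controls.

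**Figure D2:**
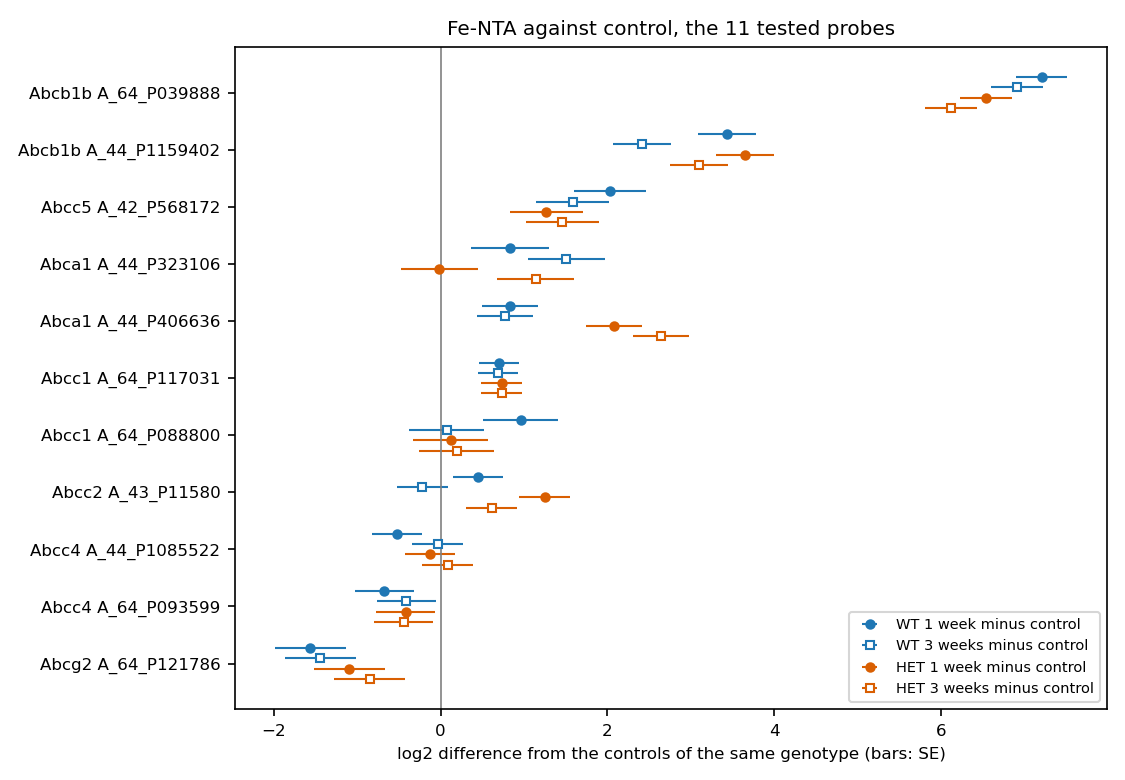
Log2 difference (x axis; bars are SE) between Fe-NTA and the controls of the same genotype for the 11 tested probes (y axis), wild-type in blue and heterozygous in orange, filled at 1 week and open at 3 weeks. The 4 differences of Abcb1b A_64_P039888 lie between 6.12 and 7.20, and those of Abcg2 lie between -1.56 and -0.85.

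Abcg2, the brush border exporter of urate and sulfates, was the one member called lower. Probe A_64_P121786 was well above background on all 16 arrays. It read 3.33 and 3.54 in wild-type controls, then 2.13, 2.34 and 1.14 at 1 week and 2.46, 2.08 and 1.43 at 3 weeks. All 6 treated wild-type arrays lay below both controls. Abcg2 fell in wild-type cortex by 1.56 (log2, SE 0.43) at 1 week, with an adjusted p of 0.013 from limma. At 3 weeks it fell by 1.44 with an adjusted p of 0.035 (limma). In heterozygous cortex the controls read 2.99 and 3.30, and the treated arrays read 2.66, 1.61 and 1.88 at 1 week and 1.76, 2.36 and 2.78 at 3 weeks. These 6 arrays also lay below both controls, but the differences of -1.09 and -0.85 did not pass the test (adjusted p = 0.13 and 0.18, limma). The interactions of genotype with treatment were 0.47 (SE 0.60) at 1 week and 0.60 at 3 weeks and did not pass either. The wild-type calls were lost without either wild-type control: at 1 week the adjusted p was 0.053 without replicate 1 and 0.095 without replicate 2 (limma), and at 3 weeks 0.11 and 0.20. The 3-week call was also lost without wild-type 3-week replicate 2 (0.073) or 3 (0.12). Without wild-type 1-week replicate 3, the array that stands apart, the 1-week difference was -1.20 with an adjusted p of 0.037 (limma). With normexp the wild-type differences were -0.85 and -0.68 and neither was called (adjusted p = 0.19 and 0.28), and without the filter the adjusted p was 0.052 and 0.13 (limma).

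Abcc5, an exporter of cyclic nucleotides and other organic anions, was called higher in 3 of the 4 comparisons. Probe A_42_P568172 read -1.28 and -2.41 in wild-type controls, both not well above background, then 0.80, 0.68 and -0.93 at 1 week and -0.28, -0.10 and -0.42 at 3 weeks. Heterozygous controls read -1.16 and -0.97, above background, and the treated arrays read 0.44, -0.07 and 0.23 at 1 week and 0.29, 0.39 and 0.50 at 3 weeks. Every treated array exceeded both controls of its genotype. In wild-type cortex Abcc5 rose at least 2.92-fold at 1 week (adjusted p = 0.0030, limma) and at least 2.14-fold at 3 weeks (adjusted p = 0.025, limma). These bounds hold for the scanner's own background subtraction and for the same kind of floor as those of Abcb1b. With normexp the wild-type differences were 0.57 and 0.27 (log2) in place of 2.03 and 1.58, and neither was called (adjusted p = 0.054 and 0.34, limma). In heterozygous cortex it rose by 1.46 (log2, SE 0.44) at 3 weeks with an adjusted p of 0.036 (limma), and the 1-week difference of 1.27 did not pass (adjusted p = 0.092). The 1-week wild-type call was lost without wild-type control replicate 2, at a difference of 1.47 with an adjusted p of 0.071 (limma). The 3-week wild-type call was lost without that control (difference 1.02, adjusted p = 0.30) and without 3-week replicate 1 (0.057) or 2 (0.076). The heterozygous call was lost when any 1 of its 5 arrays was left out, at adjusted p between 0.062 and 0.18 (limma). Without the filter neither 3-week call held (adjusted p = 0.097 in wild-type and 0.12 in heterozygous cortex). The other Abcc5 probe, A_44_P1153132, was well above background on 5 of 16 arrays and did not pass the filter.

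Abcc1, which exports glutathione conjugates and leukotriene C4 across the basolateral side, showed a small and even difference. Probe A_64_P117031 read 1.06 and 1.07 in wild-type controls, 1.92, 1.80 and 1.58 at 1 week and 1.30, 2.04 and 1.92 at 3 weeks. It read 1.23 and 1.15 in heterozygous controls, 1.92, 1.95 and 1.90 at 1 week and 2.00, 1.90 and 1.87 at 3 weeks. All 12 treated arrays lay above all 4 controls. Abcc1 rose by 0.70 (log2, SE 0.24) in wild-type cortex at 1 week, with an adjusted p of 0.045 from limma. The other 3 differences were of the same size, 0.69, 0.73 and 0.73, and did not pass (adjusted p = 0.072, 0.084 and 0.055, limma). The 1 call was lost without wild-type control replicate 1 or 2 (adjusted p = 0.17 and 0.17) and without 1-week replicate 1 (0.10) or 2 (0.075), and wild-type 3 weeks passed without its replicate 1 (0.91 log2, adjusted p = 0.027). With normexp the 1 call had a difference of 0.54 and an adjusted p of 0.11, and without the filter an adjusted p of 0.23 (limma). The second Abcc1 probe, A_64_P088800, which lies earlier in the same transcript, was dim and not called in any of the 4. Its differences were 0.96, 0.07, 0.12 and 0.19, and its 1-week wild-type difference passed without replicate 1 of that group (1.37, adjusted p = 0.031) and was 0.45 without replicate 3.

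Abcc2, the apical exporter of conjugated anions, was called in 1 comparison. Probe A_43_P11580 read 0.24 and -0.01 in heterozygous controls, 1.47, 1.08 and 1.53 at 1 week and 0.56, 0.95 and 0.67 at 3 weeks. In wild-type cortex it read 0.81 and 1.00, then 1.41, 1.75 and 0.89, then 1.11, 0.65 and 0.29. The treated heterozygous arrays were all above their controls, and the wild-type groups overlapped. Abcc2 rose by 1.25 (log2, SE 0.30) in heterozygous cortex at 1 week (adjusted p = 0.022, limma). This call was lost without heterozygous control replicate 1 or 2 (adjusted p = 0.095 and 0.17) and without 1-week replicate 1 (0.060) or 3 (0.083). With normexp the difference was 0.73 with an adjusted p of 0.061, and without the filter the adjusted p was 0.12 (limma). The wild-type 1-week difference was 0.45 (adjusted p = 0.30), and the interaction at 1 week, 0.80 (SE 0.43), did not pass the test. The heterozygous controls lay below the wild-type controls by 0.79 (SE 0.33), and the 1-week means of the genotypes were 1.36 and 1.35.

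Abcc4 and Abcc3 complete the ABCC members. Abcc4, the apical exporter of urate, cyclic nucleotides and prostaglandins, was bright and was called in no comparison. Its probe A_44_P1085522 ranged from 3.22 to 4.60 over all 16 arrays, with differences from control of -0.52, -0.04, -0.13 and 0.08 and overlapping groups in each. The 95% intervals ran from -1.17 to 0.13 (wild-type, 1 week), -0.68 to 0.61 (wild-type, 3 weeks), -0.78 to 0.52 (heterozygous, 1 week) and -0.56 to 0.73 (heterozygous, 3 weeks). They are not adjusted for the number of probes, and changes within them are not excluded. The second Abcc4 probe, A_64_P093599, gave -0.68, -0.41, -0.42 and -0.44 with no call. Without wild-type 1-week replicate 3 its 1-week difference was -1.08 with an adjusted p of 0.0091 (limma), whereas that of A_44_P1085522 was -0.21. Abcc3, a basolateral exporter of glucuronides, was well above background on 5 of 16 arrays, all of them treated, and did not pass the filter. Its probe A_64_P033761 ranged from -4.74 to -3.15 in controls and from -3.52 to -1.34 under Fe-NTA.

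Abca1, the cholesterol exporter, had 2 tested probes. Probe A_44_P323106 read -2.32 (not well above background) and -0.37 in wild-type controls, -0.59, -0.54 and -0.41 at 1 week and -0.12, 0.31 and 0.29 at 3 weeks. Heterozygous controls read -0.67 and -0.79, and treated arrays -0.48, -0.29 and -1.46 (the last not well above background) at 1 week and 0.78, -0.02 and 0.47 at 3 weeks. In both genotypes the 3-week arrays lay above the controls and above the 1-week arrays. At this probe Abca1 rose in wild-type cortex at 3 weeks by 1.51 (log2, SE 0.46) with an adjusted p of 0.042 (limma). That value depends on wild-type control replicate 1, without which it was 0.53 with an adjusted p of 0.52. It was also no longer called without 3-week replicate 1, 2 or 3 (adjusted p = 0.059, 0.11 and 0.10), and the 1-week difference, 0.83, was 1.81 and called without control replicate 2 (adjusted p = 0.013). With normexp the 3-week difference was 0.33 with an adjusted p of 0.16, and without the filter the adjusted p was 0.14 (limma). In heterozygous cortex the 3-week difference was 1.14 (adjusted p = 0.11), and with normexp it was 0.48 and called (adjusted p = 0.045, limma).

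The second Abca1 probe, A_44_P406636, was above background throughout only in heterozygous cortex at 3 weeks and passed the filter through that group. It read -4.27 and -4.13 in heterozygous controls, neither well above background. It read -2.28, -2.35 and -1.73 at 1 week, of which 1 array was above background, and -1.54, -1.44 and -1.69 at 3 weeks. Since the filter kept this probe for its high group, its main p-values are given from the fit without the filter. There it was higher in heterozygous cortex at 1 week (adjusted p = 0.013, limma) and at 3 weeks (at least 1.77-fold, adjusted p = 0.0016, limma). No fold bound is given at 1 week, where only 1 treated array was above background. With normexp, run on the filtered probes, the 1-week and 3-week heterozygous differences were 0.11 and 0.25. Neither was called (adjusted p = 0.82 and 0.33, limma). The wild-type differences were 0.83 and 0.77 without a call, and 0.83 became 1.26 without control replicate 1. The 3-week bound uses each array's own detection limit. With all values under the highest limit of any array (-1.05) raised to it, which takes in the 3 heterozygous 3-week values, the heterozygous differences were 0.00.

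**Figure D3:**
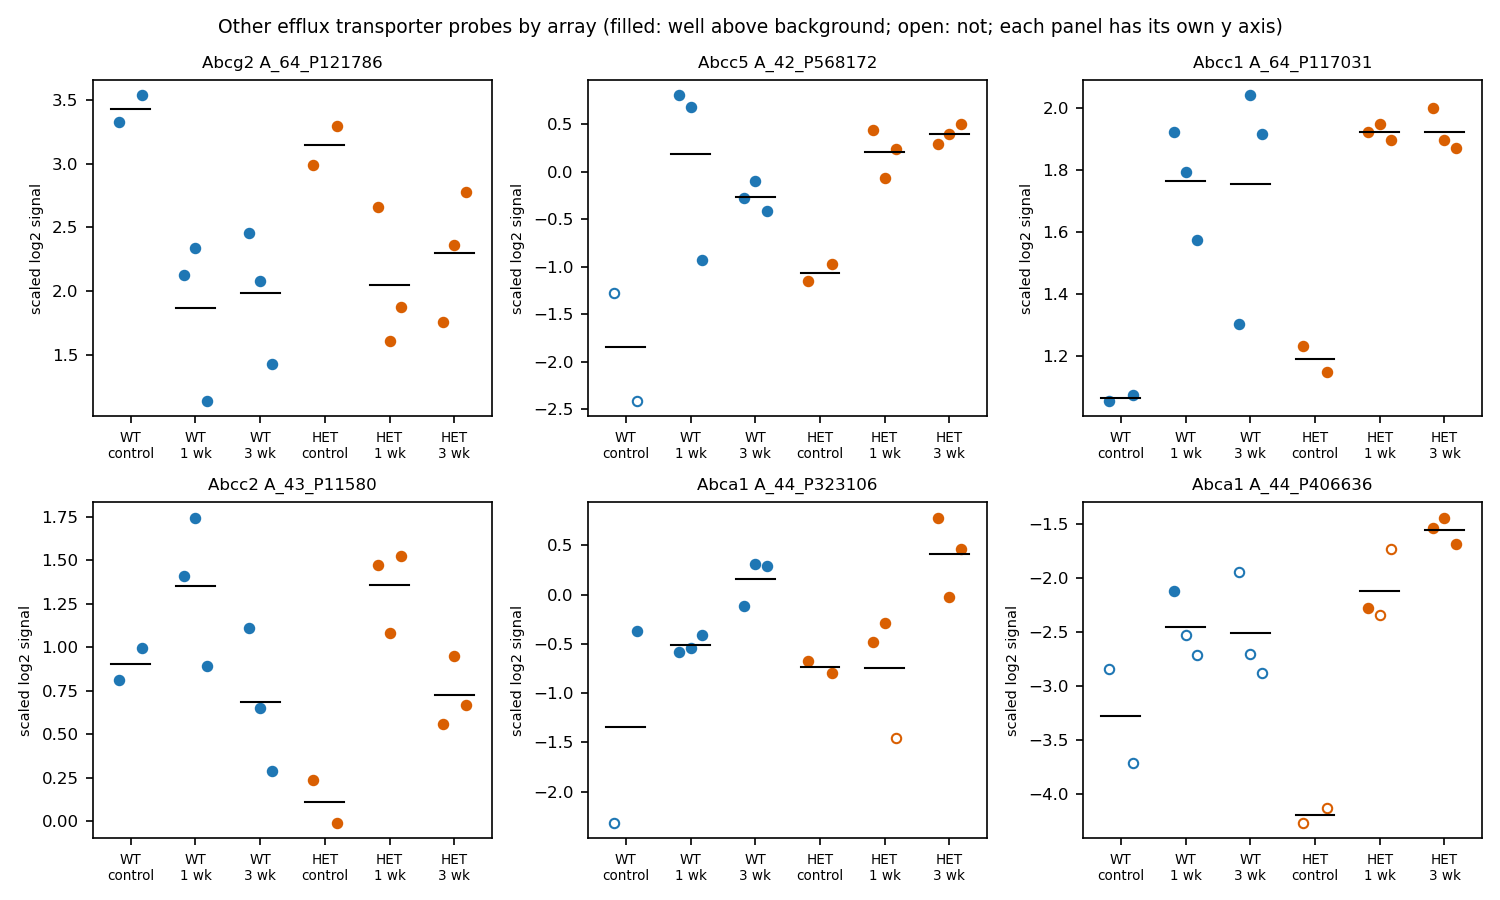
Scaled log2 signal (y axis, different in each panel) of each array for 6 further member probes by genotype and treatment; filled points are well above background, open points are not, and the bar is the group mean. Treated Abcg2 points lie below the controls of their genotype and treated Abcc1 A_64_P117031 points lie above them.

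In none of the comparisons of time, genotype or their interaction was a member probe called by limma. For 3 weeks minus 1 week 0 of 11 were called in either genotype, with 3 in wild-type and 2 in heterozygous cortex at an unadjusted p under 0.05, against 23.4% and 11.6% of all probes. After adjustment 8.16% and 0.333% of all probes were called. Between genotypes 0 of 11 were called in controls, at 1 week or at 3 weeks. At an unadjusted p under 0.05 (limma) there were 3, 1 and 1, against 4.93%, 12.8% and 5.86% of all probes. The 3 in controls were Abcc2, Abcb1b A_64_P039888 and Abca1 A_44_P406636. The latter pair was well above background on no control array, so their p-values compare values below detection. The 1 at 3 weeks was Abca1 A_44_P406636, which passed the filter only through heterozygous cortex at 3 weeks. These counts are not read as an excess. After adjustment 0% of all probes were called in controls, 0.52% at 1 week and 0% at 3 weeks. The interaction called 0 of 11 members at 1 week and 0 at 3 weeks (1 each at an unadjusted p under 0.05, against 7.81% and 4.95% of all probes), and 0% of all probes. The 1 probe in both interactions was Abca1 A_44_P406636 (1.26 and 1.87), whose control groups are below background. Leaving out wild-type 1-week replicate 1 gave 2 calls for wild-type 3 weeks minus 1 week (Abcb1b A_44_P1159402 and Abcc1 A_64_P088800 at -1.29), and leaving out replicate 3 gave 1 (Abcc5, adjusted p = 0.049, limma). Each was called in 1 of 16 alternatives only. Over these the differences ran from -1.24 to -0.38 for Abcb1b A_44_P1159402, from -1.29 to -0.27 for Abcc1 A_64_P088800 and from -1.09 to -0.13 for Abcc5.

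The gene lists that follow are read beside all 16021 tested genes, of which 12.9% were called higher and 14.4% lower in wild-type cortex at 1 week and 8.79% and 5.59% at 3 weeks. In heterozygous cortex 4.25% were called higher and 3.21% lower at 1 week, and 9.24% and 6.40% at 3 weeks. Of 42 other ABC family genes 23 passed the filter. In wild-type cortex 1 was called higher and 4 lower at 1 week, and 3 higher and 1 lower at 3 weeks, or 4.35% and 17.4%, then 13.0% and 4.35%. In heterozygous cortex 1 was called higher and 1 lower at 1 week, and 2 and 2 at 3 weeks. With so few genes these shares are not read as apart from those of all genes. The medians of their differences were 0.07, 0.26, 0.10 and -0.05, against -0.02, -0.02, -0.04 and 0.01 over all 16021 tested genes. Tap2, a peptide transporter that loads MHC class I, rose by 2.36 and 2.89 (log2) in wild-type cortex and by 2.59 in heterozygous cortex at 3 weeks; its heterozygous 1-week difference of 1.33 was not called (adjusted p = 0.073, limma). Abcg1, a sterol exporter that works with Abca1, rose by 2.15 in wild-type cortex at 3 weeks and by 1.29 and 2.19 in heterozygous cortex. Abca4, a lipid transporter best known from the retina, fell by 2.21 in wild-type and fell by 1.20 in heterozygous cortex at 1 week. Tap1, the partner of Tap2, did not pass the filter.

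Organic ion uptake and exchange carriers, a list not split by the side of the cell, were called lower. Of 11 tested organic ion uptake and exchange carriers 11 fell in wild-type cortex at 1 week, 7 at 3 weeks, and 5 and 6 in heterozygous cortex, against 14.4%, 5.59%, 3.21% and 6.40% of all tested genes; none was called higher. Their median differences were -2.90, -1.71, -2.01 and -1.63. Slc22a6 and Slc22a8, the basolateral organic anion exchangers, fell by 4.99 and fell by 5.02 (log2), in that order, in wild-type cortex at 1 week (adjusted p = 1.7e-05 and 0.0002, limma). Slco1a1, an organic anion uptake carrier, fell by 5.39 in wild-type and fell by 6.18 in heterozygous cortex at 3 weeks. It was well above background on 0 treated arrays in both comparisons, so these sizes rest on values below detection.

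Of 16 glutathione and conjugation enzymes, which make substrates of the ABCC pumps, 8, 6, 4 and 5 fell in the 4 comparisons in the same order and 1, 1, 0 and 1 rose. The shares that fell were 50%, 37.5%, 25% and 31.2%, against 14.4%, 5.59%, 3.21% and 6.40% of all tested genes. The median differences were -1.34, -0.69, -0.75 and -0.63. Gsta1, an alpha-class glutathione transferase, fell by 5.09 in wild-type cortex at 1 week and fell by 3.70 in heterozygous cortex at 3 weeks.

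Among 16 regulators of drug transporter genes 2 rose and 5 fell in wild-type cortex at 1 week, 3 rose and 1 fell at 3 weeks, none was called in heterozygous cortex at 1 week and 1 rose and 1 fell at 3 weeks. The shares in wild-type cortex at 1 week, 12.5% higher and 31.2% lower, stand beside 12.9% and 14.4% of all tested genes, and those at 3 weeks, 18.8% and 6.25%, beside 8.79% and 5.59%. Ppara, the fatty acid-sensing nuclear receptor, fell by 4.61, and Hnf4a, a proximal tubule transcription factor, fell by 2.08 in wild-type cortex at 1 week. Ppara was well above background on 0 treated arrays there, so the size of its fall rests on values below detection. Jun, a subunit of AP-1, rose by 1.44 in heterozygous cortex at 3 weeks. The median differences were -0.09, 0.15, -0.05 and 0.15. Of 11 sterol efflux and LXR partners, Abcg1 among them, 2 rose in each comparison and 2 fell in wild-type cortex at 1 week, with medians of 0.10, 0.44, 0.04 and 0.83. The 2 of 11 are 18.2%, beside 12.9%, 8.79%, 4.25% and 9.24% of all tested genes called higher in the 4 comparisons. Soat1, which esterifies cholesterol, rose by 3.03 and 2.23 in wild-type cortex. It was well above background on 0 wild-type controls, so these sizes rest on values below detection. Of 7 membrane scaffold partners 1 rose and 1 fell in wild-type cortex at 1 week and in heterozygous cortex at 3 weeks, and Pdzk1, the brush border scaffold, fell by 2.52 and fell by 1.29 there.

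**Figure D4:**
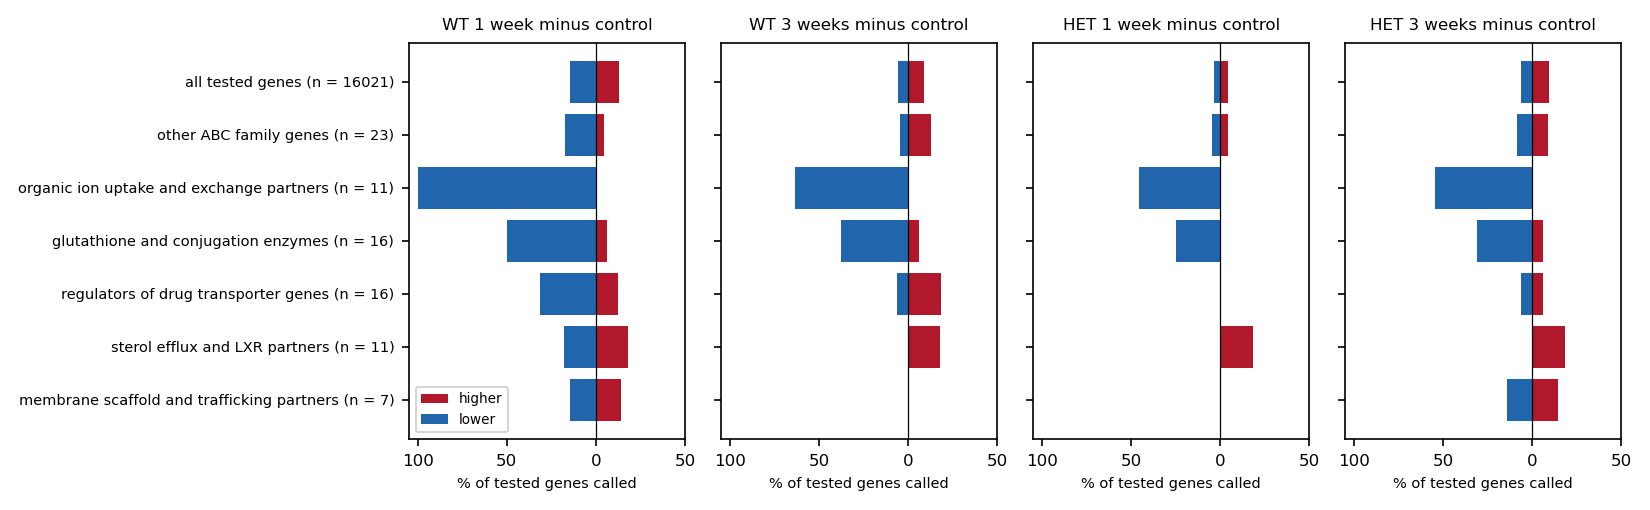
Share of tested genes called higher (right, red) or lower (left, blue; % on the x axis) in each Fe-NTA comparison for 6 gene lists and all tested genes (y axis). Of the organic ion uptake and exchange carriers 11 of 11 are called lower in wild-type cortex at 1 week.

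Markers of several cell types moved with treatment in the same cortex samples, and bulk RNA cannot tell fewer cells of a type from less RNA per cell. The summed scaled signal of 10 proximal tubule markers ran from 1360 to 1724 in wild-type controls, from 69.2 to 176 at 1 week and from 565 to 778 at 3 weeks. In heterozygous cortex it ran from 1046 to 1612, from 202 to 538 and from 392 to 781, so the labelled tissue carried its markers in every group. Of the 10, 9 fell in wild-type cortex at 1 week and 3 in each of the other comparisons, beside the lower Abcg2 levels, while 1 rose in wild-type cortex at 3 weeks. Of 8 injured tubule markers 6, 6, 5 and 7 rose beside Abcb1b, and their sum lay between 16.4 and 20.5 in controls and between 257 and 831 under Fe-NTA. Of 9 tested macrophage markers 7, 7, 7 and 8 rose, with sums of 8.36 to 10.9 in controls and 23.0 to 72.3 under Fe-NTA. Of 6 tested fibroblast markers 3, 5, 2 and 5 rose, with Lum not above background in any group. Of 7 endothelial markers 2 fell in wild-type cortex at 1 week and none was called in the other comparisons. Of 7 tested red cell markers 6, 5, 6 and 5 fell, and their sum was between 329 and 2748 in controls and between 65.5 and 619 under Fe-NTA. The part of these shifts in the transporter values was not tested.

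The arrays lay on 2 slides, each with samples of all 6 groups but only 1 control per genotype, so values within a slide carry no control spread of their own. Within slide 1 and slide 2 Abcb1b A_64_P039888 differed from control by 7.21 and 7.37 in wild-type cortex at 1 week, 7.07 and 6.78 at 3 weeks, 6.79 and 6.24 in heterozygous cortex at 1 week, and 6.90 and 5.56 at 3 weeks. Abcg2 differed by -1.91 and -0.99 in wild-type cortex at 1 week and by -1.27 and -1.90 at 3 weeks. Abcc5 differed by 2.35 and 1.96 at 1 week and by 2.23 and 0.87 at 3 weeks.

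Likeness across the arrays was described with Pearson's r of scaled log2 signals over the 16 arrays, which share treatment, composition and brightness. For Abcb1b (A_64_P039888), whose values form a control and a treated cluster, the most alike genes with a plain symbol were Fst (0.99), Cdkn1a (0.98), Capg (0.98), Il24 (0.97) and Spp1 (0.97). Fst encodes follistatin, Cdkn1a a cell cycle inhibitor and Spp1 osteopontin. For Abcg2 they were Hspe1 (0.95), Nadk (0.95) and Ugt1a6 (0.94). For Abcc5 they were Plxna1 (0.97), Lrrc45 (0.97) and Qser1 (0.96), and for Abcc1 Rnf213 (0.96), Spats2l (0.93) and Hacd3 (0.92). Abcc2 was most like Dscc1 (0.87), E2f8 (0.87) and Cenpk (0.86), which are known for roles in DNA replication and cell division. Trpv4 (0.93) and Epb41 (0.92) were among the genes most like Abcc4, and Abca1 was most like Fgfr3 (0.88), Dnajc17 (0.88) and Rnd2 (0.86).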

How the data were processed

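Agilent Feature Extraction 10.7 is named in the submitters' processing notes, and each deposited scanner file gives a background-subtracted intensity and a detection flag per spot. The authors' value table (deposited, log2 values) equals the log2 processed signal minus a constant per array. Control and outlier spots were left out, spots of a probe were averaged, and the 75th percentile of each array was subtracted from log2 of the signal. The 20404 probes flagged as detected on all arrays of 1 group or more entered limma 3.58.1 (R 4.3.3), with 1 mean per group, 10 residual and 4.89 prior degrees of freedom, two-sided, with Benjamini-Hochberg adjustment over all of them. The labels do not say that replicates are separate animals, so the spread behind each p-value may be technical. List counts use the brightest probe of each of 16021 genes.

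Members and gene lists were chosen with earlier results of these data known. All member probes are described. Of each other list the text draws on the 2 called genes with the largest difference per comparison (Tap1, Tap2 and Abcb4 in any case), and for each member on the 3 genes most like it (5 for Abcb1b), of which 1 is not reported here. Lists of thick limb, collecting duct, podocyte, lymphocyte and adrenal or adipose markers were also counted. In wild-type and heterozygous cortex at 1 and 3 weeks the calls were 1 of 5, 2 of 5, 0 of 5 and 0 of 5 (thick limb), 1, 3, 0 and 2 of 6 (collecting duct), 1, 0, 1 and 1 of 5 (podocyte), and none of the 1 tested gene in each of the last 2. In simulated data for wild-type 1 week minus control (20404 probes) 16% of changes of 1 log2 unit, 70% of 2, 96% of 3 and 98% of 4 were recovered. Far fewer probes were changed there than the 27.6% called in the data. The adjustment depends on that share, so these values do not give the recovery in the data.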

Additional observations from a re-analysis of the deposited data

How the results depend on the processing

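The directions of the Abcb1b differences from control held under all alternatives run (other background correction, normalization, filter, values raised to the highest detection limit of any array, slide, replicate block, groups in the fit, arrays left out), while their size did not: with values raised to that limit (-1.05, a stricter floor than each array's own limit, on which the fold bounds rest) they were 4.35 to 4.77 for A_64_P039888 and 0.02 to 0.94 for A_44_P1159402. The calls of the other 9 member probes changed more often; these counts include Abca1 A_44_P406636, called in both heterozygous comparisons, which passed the filter only through a group where it is high. For wild-type 1 week minus control the main count of 3 became 0 with normexp, 1 without the filter, 0 on slide 1, 0 on slide 2 and 0 with only the groups compared, and 1 to 4 with 1 array left out. For wild-type 3 weeks the 3 became 0 with normexp, 0 without the filter, 1 with values raised to the limit, 0 on slide 1 and 0 on slide 2, and 0 to 2 with 1 array left out. For heterozygous 1 week the 2 became 0 with normexp, 1 without the filter, 0 on slide 1, 0 on slide 2, 1 with 1 probe per gene, and 1 to 2 with 1 array left out. For heterozygous 3 weeks the 2 became 1 without the filter, 1 with quantile normalization, 0 on slide 1, 1 on slide 2, 4 with only the groups compared, 1 with 1 probe per gene, and 1 in each run with 1 array left out. Wild-type 3 weeks minus 1 week went from 0 to between 0 and 2 with 1 array left out. Each slide holds 8 of the 16 arrays, with 1 control of each genotype and 1 or 2 arrays of each treated group, so the lone arrays are assumed to vary like the groups of 2; the causes of the other changes were not tested.

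Over all probes the 5628, 2942, 1518 and 3115 calls against control became 2167, 1023, 590 and 1920 with normexp, 3371, 1223, 580 and 1317 without the filter, 1409, 329, 137 and 288 on slide 1, and 222, 5, 17 and 369 on slide 2. With only the groups compared they were 2320 in wild-type 1 week, 4482 in wild-type 3 weeks and 4789 in heterozygous 3 weeks. Deviations of same-numbered arrays of different groups correlated from -0.32 to 0.43 (36 pairs, median 0.02). Those of differently numbered arrays ran from -0.50 to 0.38 (70 pairs, median -0.02). These values do not settle whether the numbers pair samples. With the replicate block the member counts were 2, 1, 2 and 2, and the count for all probes in heterozygous 3 weeks minus 1 week went from 68 to 104. Signal over background kept Abcb1a, Abcc3 and 1 Abcc5 probe from being tested.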
